A study of Mus musculus with 8 samples.

Results

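Defa24, Defa30, Defa38, Defa39, Defa29 and Defa26 are 6 abundantly counted α-defensin genes of mouse Paneth cells, taken from the 28 protein-coding Defa genes of chromosome 8. They were followed in 8 C57BL/6J mice, of which 4 received a standard diet (control) and 4 a zinc depleted diet (zinc depletion) for 7 weeks. Paneth cells were sorted by FACS from the small intestine of each mouse, and total RNA of the sorted cells gave 1 stranded mRNA library and 1 column of gene counts per mouse. All mice were of the same genotype, and no transgene or other treatment is given in the labels. The 6 genes were named by the rule that defines the group, which used their counts and their comparison between the diets. Their levels, shares, ratios and diet differences are therefore a description and are given with no test. Among all 55414 identifiers of the table, 10911 passed the expression filter, and these included all 6 members and 14 of the 22 other Defa genes.

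The members are not simply the 6 Defa genes with the most counts. Defa26 was the lowest member, with 2580 CPM (counts scaled to a total of 1000000 per mouse) as the mean of the 8 mice. Defa17 lay just below it with 1748 CPM. Defa21 with 21714 CPM and Defa22 with 19366 CPM lay between Defa38 and Defa29 but were not members.

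α-defensins are small cationic antimicrobial peptides that Paneth cells store in granules at the base of the intestinal crypt and release into the crypt lumen. They are made as prepropeptides from genes with a pair of coding exons. The first coding exon encodes the signal peptide and most of the propeptide, and the second encodes the mature peptide. In mouse Paneth cells matrilysin (Mmp7) cuts the propeptide, and cysteines that pair into disulfide bonds hold the fold of the mature peptide. Paneth cell granules are also rich in zinc.

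The coding part of exon 2 of each member is printed first, since this is where the members differ most as gene products. It was read 5′ to 3′ on the coding strand of GRCm39 with the gene models of GENCODE M39, without the stop codon. Capitals mark the cysteine codons.

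Defa24: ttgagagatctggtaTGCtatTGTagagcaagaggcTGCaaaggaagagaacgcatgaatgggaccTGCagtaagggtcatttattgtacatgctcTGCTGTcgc
Defa30: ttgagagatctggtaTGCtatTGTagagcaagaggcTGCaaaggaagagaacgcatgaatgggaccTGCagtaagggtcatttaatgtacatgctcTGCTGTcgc
Defa26: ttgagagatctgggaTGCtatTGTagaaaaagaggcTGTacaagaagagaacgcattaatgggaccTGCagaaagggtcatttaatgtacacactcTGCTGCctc
Defa38: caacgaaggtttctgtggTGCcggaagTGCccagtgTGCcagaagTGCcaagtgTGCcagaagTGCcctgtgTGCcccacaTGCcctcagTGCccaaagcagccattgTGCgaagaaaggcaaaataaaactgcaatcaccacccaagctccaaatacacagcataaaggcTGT
Defa39: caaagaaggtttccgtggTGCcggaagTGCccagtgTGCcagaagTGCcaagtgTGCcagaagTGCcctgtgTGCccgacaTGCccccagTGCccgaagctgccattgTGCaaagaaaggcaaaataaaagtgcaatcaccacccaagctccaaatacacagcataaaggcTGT
Defa29: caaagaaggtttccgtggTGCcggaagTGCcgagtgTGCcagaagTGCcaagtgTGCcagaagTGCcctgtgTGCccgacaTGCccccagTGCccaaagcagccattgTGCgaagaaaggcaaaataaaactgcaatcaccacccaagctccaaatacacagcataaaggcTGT

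The members fell into a pair of structural classes of 3 genes each. Defa24, Defa30 and Defa26 encode classical α-defensins, with a coding sequence of 93 codons and 35 codons in exon 2, of which 6 are cysteine codons. Defa38, Defa39 and Defa29 have 116 codons and 58 codons in exon 2, of which 11 are cysteine codons. In Defa38 and Defa39, 5 of these cysteines are followed directly by a proline, and in Defa29 4 are. Of the other 22 Defa genes, Defa42 and Defa43 also had 11 cysteine codons in exon 2, and Defa41 had 7.

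Within a class the members were close copies, and between classes they were not. The coding sequences of Defa24 and Defa30 differed at 4 positions (98.6% identity). Counted from 1 at the A of the start codon, with Defa24 as the reference, these were T72C, G154T, A174G and T259A. The changes G154T in codon 52 and T259A in codon 87 replace an amino acid, and only the latter lies in exon 2. Defa26 differed from Defa24 at 30 coding positions (89.2% identity) and from Defa30 at 26 (90.7%). In the cysteine-rich class, Defa38 differed from Defa29 at 9 positions (97.4%) and from Defa39 at 11 (96.8%), and Defa39 differed from Defa29 at 12 (96.6%). Identity between members of different classes was 67.0% to 69.0%.

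Identity of this kind limits how far reads can be assigned to 1 gene. Of all windows of 70 bases along the annotated mRNA, 89.2% in Defa24 were found in no other gene and nowhere else in the Defa region. The share was 85.4% in Defa39, 82.2% in Defa26, 74.5% in Defa30, 66.7% in Defa29 and 65.6% in Defa38. The gene that shared the most windows was Defa30 for Defa24, Defa3 for Defa30, Defa40 for Defa26, Defa38 for both Defa39 and Defa29, and Defa29 for Defa38. How reads with several matches were counted is not given in the sources used here, so the division of counts between these pairs is uncertain. The same counting applied to all 8 mice as far as the sources say.

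All members lie on chromosome 8 (GRCm39) and are interspersed with the other Defa genes. From the proximal side, Defa38 (ENSMUSG00000061958) lies on the minus strand at 21585090 to 21586066, and Defa30 (ENSMUSG00000074444) on the plus strand at 21624633 to 21625621. Defa29 (ENSMUSG00000074437) follows on the minus strand at 21815903 to 21817036, and Defa26 (ENSMUSG00000060070) on the plus strand at 22108199 to 22108988. Defa39 (ENSMUSG00000058618) on the minus strand at 22192531 to 22193661 and Defa24 (ENSMUSG00000064213) on the plus strand at 22224507 to 22225487 are the most distal. The 3 classical members are on the plus strand and the 3 cysteine-rich members on the minus strand.

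The libraries held 8557690 to 12648005 counts, of which 35.7% to 50.9% fell on the 28 Defa genes. The TMM factor, which scales a library by the genes that do not stand out, was 0.928 to 1.57 in the control mice and 0.719 to 1.10 in the zinc depletion mice. The highest was that of control replicate 1 and the lowest that of zinc depletion replicate 2. The sorted cells held the Paneth cell markers Lyz1, Mmp7, Itln1, Ang4 and Mptx2, with a summed level of 225956 to 256467 CPM in the control mice and 251797 to 285566 CPM in the zinc depletion mice. Of these 5 genes edgeR called 0, with 2 at an unadjusted p under 0.05 (Ang4 and Mptx2), and DESeq2 called 1 (Mptx2). Of all 10911 genes, 1142 had an unadjusted p under 0.05. In bulk RNA, fewer cells of a type and less RNA per cell cannot be told apart.

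Defa24 took more counts than any other gene in every mouse. It was counted at 166162, 199700, 217922 and 226944 CPM in the control mice and at 216180, 251185, 200378 and 228695 CPM in the zinc depletion mice. The diets overlapped, and control replicate 1 was the lowest of the 8 mice. The means were 202682 ± 26855 CPM in control and 224110 ± 21449 CPM in zinc depletion (SD, n = 4 each).

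Defa30, which encodes nearly the same peptide, ranked as number 3 by counts among all genes in every mouse. Its level was 69660, 78453, 89169 and 96715 CPM in control and 67026, 93016, 69662 and 72266 CPM in zinc depletion. Of the zinc depletion mice, 3 lay at or near the lowest control value, and zinc depletion replicate 2 lay near the top. The means were 83499 ± 11885 and 75493 ± 11877 CPM.

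Defa38 and Defa39, the abundant cysteine-rich members, were counted at similar levels but changed places between the diets. Defa38 was at 37953, 43378, 50412 and 48503 CPM in control and at 38643, 46732, 40017 and 40868 CPM in zinc depletion. Defa39 was at 36551, 39660, 44483 and 46552 CPM in control and at 42799, 49231, 44304 and 49854 CPM in zinc depletion. Each of them overlapped between the diets. However, Defa38 was above Defa39 in 4 of 4 control mice and below it in 4 of 4 zinc depletion mice.

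Defa29, the least counted of the cysteine-rich members, was at 6929, 7417, 8310 and 6926 CPM in control. In zinc depletion it was at 8992, 7808, 8305 and 4892 CPM, with both the highest and the lowest of the 8 values. Defa26, the least counted classical member, was at 1887, 2372, 2644 and 2669 CPM in control and at 2693, 2654, 2330 and 3395 CPM in zinc depletion. Zinc depletion replicate 4, the lowest mouse for Defa29, was the highest for Defa26.

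**Figure D1:**
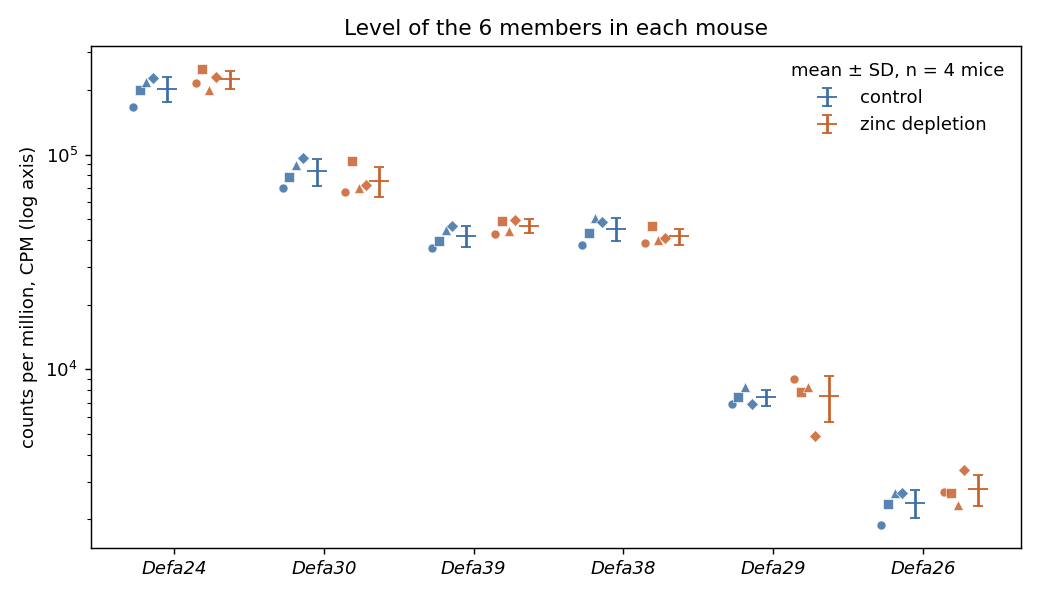
CPM (log axis) of the 6 members in each of 4 control and 4 zinc depletion mice; each marker shape is a replicate number, and the bars are the mean ± SD. The diets overlap for all 6 members, and the members span from 251185 CPM for Defa24 to 1887 CPM for Defa26.

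Levels of different genes were set side by side per length. Per kilobase of the annotated mRNA, Defa24 had 505677 CPM as the mean of the 8 mice, followed by Defa30 with 184874, Defa38 with 123400, Defa39 with 87139, Defa29 with 14660 and Defa26 with 6937. Defa24 was 2.39 to 3.29 times Defa30 per kilobase of mRNA within a mouse, and Defa30 was 1.42 to 1.63 times Defa38. Each of these orders held in 8 of 8 mice. Between Defa38 and Defa39 the order depended on the length used. The annotated mRNA of Defa38 is 351 bases long and covers only a part of its summed exons of 595 bases, against 507 and 582 bases for Defa39. Per kilobase of mRNA, Defa38 exceeded Defa39 in 8 of 8 mice, but per kilobase of summed exons it did so in 4 of 8, the control mice. At the lower end, Defa29 exceeded Defa26 per kilobase in 8 of 8 mice, by 1.90 to 2.69 times in control and by 1.06 to 2.61 times in zinc depletion. The lowest value was that of zinc depletion replicate 4, in which both genes had nearly the same level per kilobase.

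Among Defa24, Defa30, Defa38 and Defa39, ratios varied less between mice of a diet than levels did. On the log2 scale, the SD of CPM between mice of a diet was 0.14 for Defa39, 0.15 for Defa38, 0.17 for Defa24, 0.21 for Defa30, 0.23 for Defa26 and 0.29 for Defa29. The log2 ratios of counts among Defa24, Defa30, Defa38 and Defa39 within a mouse had an SD of 0.07 to 0.12. Ratios of these 4 genes to Defa26 had an SD of 0.14 to 0.23. Ratios that involved Defa29 had an SD of 0.32 to 0.45, and were thus the loosest among the members. Across the 8 mice, Pearson's r of log2(CPM + 1) after centring on the mean of each diet was 0.84 to 0.94 among Defa24, Defa30, Defa38 and Defa39, whereas Defa29 had r of -0.48 to 0.11 with the other members. These correlations are descriptions over 8 mice that share their library, depth and denominator.

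The genes that most resembled each member across the 8 mice were taken from 5679 genes at or above a mean of 10 CPM, on the scale of log2(CPM + 1) with TMM library sizes. On that scale all genes of a mouse are divided by the same TMM factor, and this factor differed between mice. Every pair of members had a higher r on it than with plain CPM. For Defa24 and Defa29 r was 0.76 against -0.06, and for Defa30 and Defa26 0.86 against 0.21. The r values below are the highest of many genes and are a description. The closest to Defa24 were Tmem256 (r = 0.999), Mmp7 (r = 0.990), which encodes the protease that processes α-defensins, and Cox7a2 (r = 0.990), a subunit of cytochrome c oxidase. Cox7a2 and Mmp7 were also among the closest 3 of Defa39, with r = 0.994 and r = 0.992, after Smim7 with r = 0.996. Defa30 and Defa38 shared their closest gene, Snhg18, a small nucleolar RNA host gene (r = 0.992 and 0.984). The others were Mrps14 (r = 0.975) and Stard3nl (r = 0.972) for Defa30, and Sra1 (r = 0.984) and Slc35b2 (r = 0.976) for Defa38. Defa26 was closest to Rpl41 (r = 0.994), Psma6 (r = 0.993) and D8Ertd738e (r = 0.993). Defa29 had different neighbours, namely Dio1 (r = 0.977), a deiodinase, Smpdl3a (r = 0.974) and Selenop (r = 0.943), a selenium carrier.

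In the edgeR fit with TMM scaling, the log2 fold change of zinc depletion over control was 0.46 ± 0.40 (SE) for Defa24, 0.17 ± 0.37 for Defa30, 0.19 ± 0.35 for Defa38, 0.47 ± 0.34 for Defa39, 0.32 ± 0.29 for Defa29 and 0.51 ± 0.29 for Defa26. Of all 10911 genes, 1142 had an unadjusted p under 0.05 in edgeR, and DESeq2 called 146. In edgeR 0.403% were past an adjusted p of 0.05 (44 genes, of which 16 were higher in zinc depletion). Of the members 0 of 6 were past it, 0 had an unadjusted p under 0.05, and DESeq2 called 0 as well. Since the members were chosen on this contrast, nothing is read from that count. The 4 control and the 4 zinc depletion values, scaled by TMM, did not overlap for 6.09% of all tested genes and for 0 of the 6 members.

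The sign of these differences depended on the scaling for 3 members. Without TMM factors the median log2 fold change of all tested genes moved from -0.005 to -0.368. With library sizes alone the differences were -0.15 for Defa30 and -0.12 for Defa38, against 0.14 for Defa24, 0.15 for Defa39, 0.02 for Defa29 and 0.21 for Defa26. Relative to Lyz1, the lysozyme of Paneth cell granules, the differences within a mouse were 0.05 for Defa24, -0.25 for Defa30, -0.21 for Defa38, 0.06 for Defa39, -0.11 for Defa29 and 0.11 for Defa26. Relative to Itln1, a granule lectin, they were 0.29, -0.01, 0.03, 0.30, 0.13 and 0.35 in the same order. Leaving out control replicate 1, the library with the highest TMM factor, gave 0.26 for Defa24, -0.02 for Defa30 and 0.00 for Defa38. Leaving out zinc depletion replicate 2 gave 0.28, -0.07 and 0.01. In each of these settings Defa30 and Defa38 lay below Defa24, Defa39 and Defa26. A change of scaling shifts all members of a mouse alike. The order under each scaling therefore restates the ratios between members and is no separate result.

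**Figure D2:**
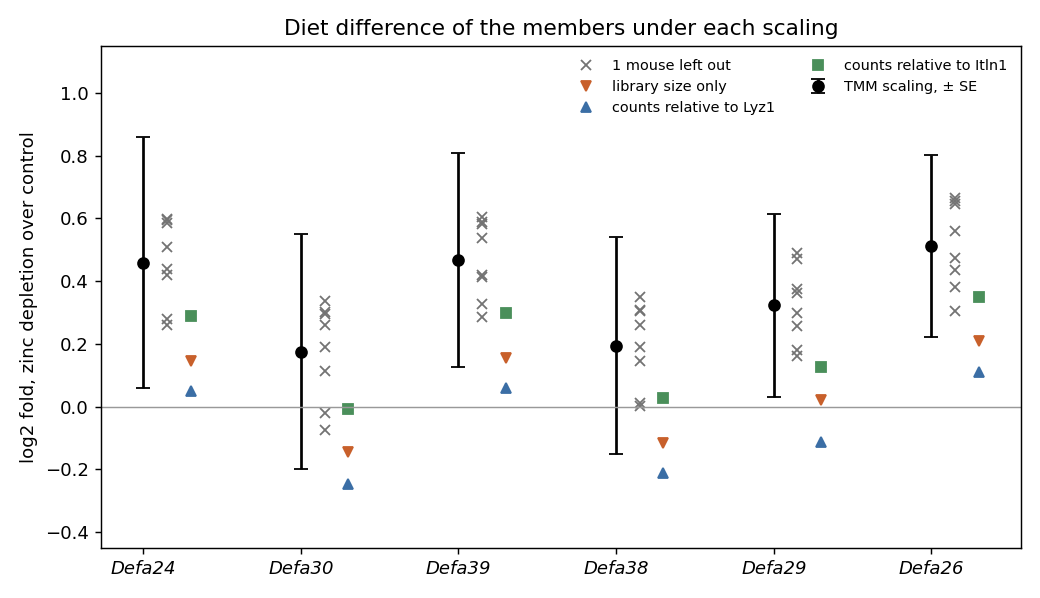
Log2 fold of zinc depletion over control for each member: black points with SE bars are the edgeR fit with TMM scaling, crosses leave out 1 mouse each, and coloured markers use library size alone or the counts of Lyz1 or Itln1 in the same mouse. The bars span 1 SE on each side and are no test of a difference, and 0 of the 6 members were called. The values of Defa30 and Defa38 fall on both sides of 0 between scalings, and that of Defa29 is -0.11 relative to Lyz1. The values of Defa24, Defa39 and Defa26 stay above 0 in the settings shown.

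Ratios between members within a mouse depend neither on library size nor on TMM, and some of them separated the diets. The ratio of counts of Defa24 to Defa30 was 2.39, 2.55, 2.44 and 2.35 in the control mice and 3.23, 2.7, 2.88 and 3.16 in the zinc depletion mice. All 4 zinc depletion mice lay above all 4 control mice. The mean log2 ratio was 1.28 ± 0.05 in control and 1.58 ± 0.12 in zinc depletion (SD, n = 4 each), a difference of 0.30 or 1.23-fold. The ratio of Defa38 to Defa39 was 1.04, 1.09, 1.13 and 1.04 in control and 0.903, 0.949, 0.903 and 0.820 in zinc depletion. Here the zinc depletion mice lay below the control mice, with a mean log2 ratio of -0.16 ± 0.09 against 0.11 ± 0.06, a difference of -0.27.

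Some ratios across the structural classes did not overlap between the diets either. They use the same genes as the ratios above and are not independent of them. The ratio of Defa24 to Defa38 was 4.32 to 4.68 in control and 5.01 to 5.60 in zinc depletion, and that of Defa30 to Defa39 was 1.91 to 2.08 and 1.45 to 1.89. The ratio of Defa38 to Defa26 was 18.2 to 20.1 in control and 12.0 to 17.6 in zinc depletion. In contrast, the ratio of Defa24 to Defa39 was nearly the same in both diets, with 4.55 to 5.04 in control and 4.52 to 5.10 in zinc depletion and a difference of -0.01 on the log2 scale. The ratio of Defa30 to Defa38 was 1.77 to 1.99 in control and 1.73 to 1.99 in zinc depletion, with a difference of -0.03. The ratio of Defa30 to Defa26 was 33.1 to 36.9 in control and 21.3 to 35.1 in zinc depletion and overlapped, with a difference of -0.36.

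Over all 15 ratios between members, 5 did not overlap between the diets. Among the 435 pairs of the 30 genes that averaged 1000 CPM or more, 29.7% of ratios did not overlap. The member ratios were part of what the members were chosen on, and nothing is read from their count. Leaving out a mouse cannot make separated values overlap, so it is no test of these 5 ratios. Without zinc depletion replicate 2 the ratios of Defa30 to Defa38 and of Defa30 to Defa26 did not overlap either, which made 7 of 15. When each mouse was left out in turn, the log2 difference was 0.259 to 0.345 between Defa24 and Defa30. Between Defa39 and Defa38 it was 0.229 to 0.299.

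**Figure D3:**
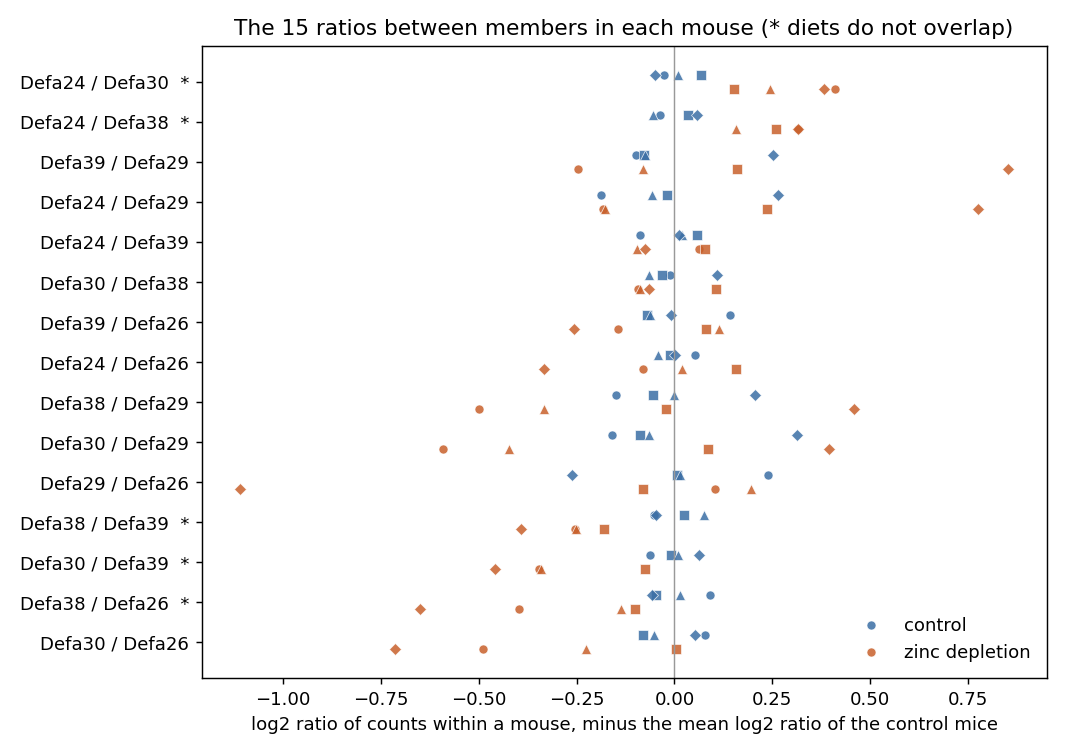
Log2 ratio of counts of each pair of members within a mouse, minus the mean log2 ratio of the control mice, so that 0 is the control mean; each point is a mouse, and marker shapes are replicate numbers. The 5 starred ratios do not overlap between the diets, all of them pair Defa30 or Defa38 with Defa24, Defa39 or Defa26, and the ratios with Defa29 are the most scattered.

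Together the 6 members held 89.4%, 89.4%, 90.9% and 92.3% of all Defa counts in the control mice and 85.8%, 88.5%, 86.8% and 90.4% in the zinc depletion mice. The diets overlapped, since zinc depletion replicate 4 lay above 2 of the control mice. The means were 90.5% ± 1.37 in control and 87.9% ± 2.02 in zinc depletion (SD, n = 4 each). The 95% Wilson interval of a single mouse was at most ± 0.033 percentage points, and it covers counting error only. With counts divided by mRNA length, the means were 90.4% and 87.7%. These shares depend on how reads with several matches were counted. Of the 28 Defa genes 10 had no window of 70 bases of their own, all of them outside the 6 members. They were counted at means of 0 to 3.79 CPM, so their reads may be missing from the Defa total or counted under another gene. An experiment that the paper calls typical was quantified in another way. There Defa2, Defa23 and Defa20 of these 10 were among the most abundant Defa transcripts, while Defa31 and Defa37 had no reads. The 6 members also made up a much smaller part of the Defa total in that experiment than here. The percentages here are thus shares of the deposited counts and should not be read as shares of Defa expression.

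The difference was spread unevenly over the members. Defa30 made up 19.5%, 18.9%, 19.6% and 20.8% of the Defa counts in control and 15.3%, 18.3%, 16.6% and 16.3% in zinc depletion. Defa38 made up 10.6%, 10.5%, 11.1% and 10.4% in control and 8.81%, 9.17%, 9.52% and 9.24% in zinc depletion. For both genes all zinc depletion mice lay below all control mice, with differences of the means of -3.11 and -1.47 percentage points. Defa24 with 47.9% ± 0.96 and 49.5% ± 1.67, Defa39 with 9.90% ± 0.30 and 10.3% ± 0.75, Defa29 with 1.76% ± 0.19 and 1.67% ± 0.44 and Defa26 with 0.564% ± 0.024 and 0.614% ± 0.109 overlapped between the diets. By structural class, the 3 classical members held 68.2% ± 1.55 and 66.7% ± 2.03, and the 3 cysteine-rich members 22.3% ± 0.52 and 21.2% ± 0.79.

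The rest of the Defa counts came mainly from Defa21 and Defa22, which together took 8.25% ± 1.30 of the Defa counts in control and 10.6% ± 2.01 in zinc depletion. Of the 20 Defa genes that averaged 1 CPM or more, 7 had a lower mean share in zinc depletion, and 3 of these 7 were members. On the log2 scale of the mean share, the differences of Defa30 (-0.25) and Defa38 (-0.21) were exceeded at the lower end only by Defa25 (-0.26), which had 1.07 CPM. Shares of 4 of the 20 genes did not overlap between the diets, namely Defa30, Defa38, Defa40 and Defa41. These were 2 of the 6 members and 2 of the 14 others. The shares were part of what the members were chosen on and add up to a fixed total, so nothing is read from this count.

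**Figure D4:**
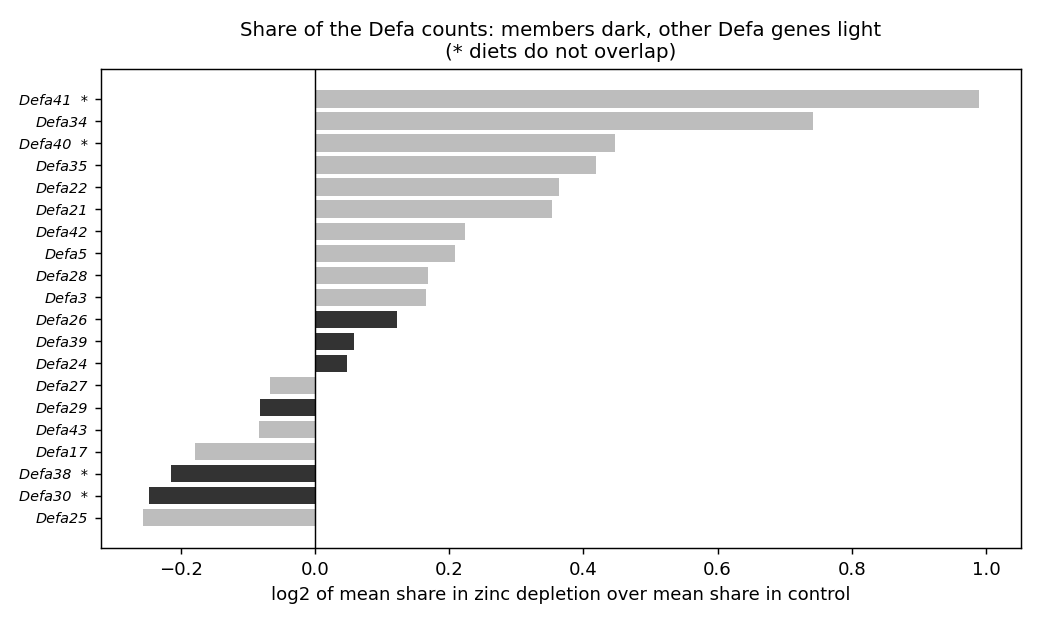
Log2 of the mean share of the Defa counts in zinc depletion over that in control (4 mice each) for the 20 Defa genes that averaged 1 CPM or more; dark bars are members and light bars other Defa genes. Defa30 and Defa38 lie near the lower end at -0.25 and -0.21, Defa24, Defa39 and Defa26 between 0.05 and 0.12, and the upper end is held by Defa41 and Defa34.

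Among the 14 other Defa genes that were tested, Defa41 and Defa34 rose by edgeR, 8 had an unadjusted p under 0.05 and DESeq2 called 5. Of all 10911 genes, edgeR called 44, 1142 had an unadjusted p under 0.05 and DESeq2 called 146. Defa41 was at 40.2, 45.9, 39.8 and 41.2 CPM in control and at 87.1, 81.1, 88.6 and 99.4 CPM in zinc depletion, with a log2 fold change of 1.42 ± 0.18 (SE) and an adjusted p of 0.0016 in edgeR's quasi-likelihood test. All zinc depletion mice were above all control mice. Defa34 was at 1131, 1118, 880 and 968 CPM in control and at 2197, 1570, 2108 and 1517 CPM in zinc depletion, with a log2 fold change of 1.18 ± 0.21 and an adjusted p of 0.023 in the same test. The call of Defa34 was lost with library sizes alone (adjusted p = 0.071), and without control replicate 2 (0.14) or 4 (0.095) and zinc depletion replicate 1 (0.063) or 2 (0.059). The median log2 fold change of these 14 genes was 0.66, against 0.39 for the 6 members and -0.005 for all tested genes.

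Sequence before the annotated start was read from GRCm39 and is printed for Defa24, Defa30, Defa39 and Defa38. Defa26, whose ratio to Defa38 also differed, had no TATAAA in the 250 bases before its start and has no run here. Each run holds 66 bases on the strand of the gene, and capitals mark the letters TATAAA.

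Defa24: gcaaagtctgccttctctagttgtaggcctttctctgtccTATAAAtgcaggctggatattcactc
Defa30: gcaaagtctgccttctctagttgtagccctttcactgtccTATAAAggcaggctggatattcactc
Defa39: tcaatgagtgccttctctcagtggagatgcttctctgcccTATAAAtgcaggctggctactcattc
Defa38: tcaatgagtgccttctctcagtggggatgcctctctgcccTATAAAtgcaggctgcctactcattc

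These runs are chr8:22224439-22224504 (Defa24), chr8:21624565-21624630 (Defa30), chr8:22193667-22193732 (Defa39, minus strand) and chr8:21586115-21586180 (Defa38, minus strand). In the 250 bases before the start, Defa24 and Defa30 differed at 7 positions (97.2% identity), and Defa39 and Defa29 at 16 (93.6%). The annotated start of the Defa38 transcript lies further from these letters than that of the others, 74 bases after them against 28 to 31, so its 250 bases cover other positions relative to these letters than those of the other members. On both strands of these 250 bases, TATAAA was found in 11.9% of 21751 promoters, in 23 of 28 Defa genes and in 5 of 6 members, the exception being Defa26. CTTTGA or CTTTGT, the core letters bound by TCF factors of the Wnt pathway, occurred in 27.2% of promoters and in 23 of 28 Defa genes. They occurred 2 times each in Defa24, Defa30 and Defa26 and 0 times in Defa38, Defa39 and Defa29. TGCACNC or TGCGCNC, the core of metal response elements, occurred in 21.9% of promoters and in 0 of 28 Defa genes. A match or its absence describes the letters of this window only.

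Genes that act beside α-defensins were read from lists of known genes. Of 9 tested genes for other granule products and for defensin processing, 2 rose and 0 fell by edgeR, 6 had an unadjusted p under 0.05 and DESeq2 called 4. Over all 10911 genes, 1142 had an unadjusted p under 0.05. Reg3g, a C-type lectin that binds Gram-positive bacteria, was at 833 ± 182 CPM in control and 1944 ± 366 CPM in zinc depletion (SD, n = 4 mice each), with a log2 fold change of 1.60 ± 0.24 (SE) and an edgeR adjusted p of 0.0071. Reg3b, a related lectin, was at 149 ± 38.4 and 546 ± 169 CPM, with a log2 fold change of 2.25 ± 0.33 and an edgeR adjusted p of 0.017. The call of Reg3b was lost without control replicate 1 (adjusted p = 0.073) or 4 (0.060) and without zinc depletion replicate 4 (0.053). The other 7 did not pass, among them Lyz1 with 0.43 ± 0.37, Mmp7 with 0.52 ± 0.30, Itln1 with 0.15 ± 0.34 and Mptx2, a pentraxin, with 1.45 ± 0.34 and an edgeR adjusted p of 0.071.

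Regulators of the Paneth cell lineage gave 0 calls by edgeR among 10 tested genes, with 0 at an unadjusted p under 0.05 and 0 calls by DESeq2. Sox9, needed for Paneth cells to form, had a log2 fold change of 0.06 ± 0.15, and Tcf7l2 and Ctnnb1 of Wnt signalling had 0.19 ± 0.21 and -0.16 ± 0.15. Zinc handling genes gave 0 calls by edgeR among 8 tested genes and 0 by DESeq2, with 2 at an unadjusted p under 0.05 (Slc39a5 and Mtf1). The metallothionein Mt1, which binds zinc, had a log2 fold change of -0.25 ± 0.24 at 14.97 ± 3.47 CPM in control and 9.87 ± 3.84 CPM in zinc depletion. The granule zinc transporter Slc30a2 had 0.19 ± 0.15.

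Markers of other cells were read beside these results, against 1142 of all 10911 genes at an unadjusted p under 0.05. Of 28 tested genes on 9 lists, 8 had an unadjusted p under 0.05, DESeq2 called 2 and edgeR called 1, the proliferation gene Top2a, with a log2 fold change of -1.18 ± 0.21 and an adjusted p of 0.023. This call was lost with library sizes alone, and without control replicate 2 or 4 and zinc depletion replicate 2 or 4. The summed level of the 4 proliferation markers was 56.3 to 135 CPM in control and 18.7 to 57.4 CPM in zinc depletion. That of the 4 stem cell markers was 1279 to 2011 and 461 to 1034 CPM and did not overlap. Of these 4 genes edgeR called 0, 3 had an unadjusted p under 0.05 and DESeq2 called 1 (Olfm4). All these sums are plain CPM, and with library sizes alone the median log2 fold change of all tested genes was -0.368. The 7 goblet cell markers summed to 7150 to 10366 and 7087 to 12018 CPM, and the 7 enterocyte markers to 27.7 to 142 and 16.1 to 144 CPM. The 6 enteroendocrine markers summed to 8.53 to 23.0 and 1.58 to 9.16 CPM, and the 5 tuft cell markers to 31.7 to 52.8 and 8.44 to 222 CPM. The 5 immune markers summed to 23.8 to 37.3 and 31.0 to 51.5 CPM, with Cd3e at 0 in all mice. The 4 stromal and vessel markers reached at most 0.17 CPM, with Col1a1, Col3a1 and Acta2 at 0, and the 4 erythroid markers at most 0.76 CPM. The part of these cells in the member ratios was not tested.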

How the data were processed

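Paneth cells of 8 mice were analysed, 4 per diet. The authors deposited raw whole-number counts per Ensembl gene, not normalized. The submitters' processing notes name FastQC 0.12.0, STAR 2.7.0a, DESeq2 and the build mm39. How reads were counted, and against which annotation, is not given in the sources used here. Of 55414 identifiers, 54749 were found in GENCODE M39, and 0 columns belonged to other samples.

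The comparison of diets used edgeR 4.0.16 under R 4.3.3 (TMM scaling, filterByExpr, robust quasi-likelihood test, Benjamini-Hochberg adjustment over 10911 genes, threshold 0.05). DESeq2 1.42.0 was an alternative. On simulated counts for the same comparison and genes, 72% of 2-fold and 95% of 4-fold changes were called. The simulation gave each gene the dispersion of the trend over all genes, not its own. These percentages therefore do not say how often a change of a member would be called. CPM, shares and ratios were computed from the deposited counts in Python 3.11.15. A level of 3 counts, which a count of 0 allows, was 0.237 to 0.351 CPM. Each library came from 1 mouse.

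The 6 members and all lists were chosen with earlier results of these data known. Genes named are the members, the other Defa genes, the list genes and the 3 genes most alike to each member. 1 gene list is not reported here. Protein sequences were not used here.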

Additional observations from a re-analysis of the deposited data

Results flagged for a closer look

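In 56 groups of 4 mice (levels, shares and ratios of the members within a diet), 2 held a mouse that stood far from the other 3, and chance flags about 1 in 20 such groups. The ratio of Defa30 to Defa38 was 1.99 in zinc depletion replicate 2, against 1.73 to 1.77 in the other zinc depletion mice. The ratio of Defa39 to Defa29 was 6.72 in control replicate 4, against 5.27 to 5.35 in the other control mice. The cause was not tested.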

How the results depend on the processing

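The log2 fold changes of the members were within the spread between mice of their values under TMM in all settings but 1, Defa29 relative to Lyz1 (-0.11). This is a wide criterion, since that spread was an SD of 0.42 to 0.50 and the fold changes themselves were 0.17 to 0.51. Defa30 and Defa38 changed sign within it. The comparison with Lyz1 and Itln1 and the share per mRNA length were chosen after seeing the data. The share of the members differed by -3.46 to -1.92 percentage points between the diets in all settings. The number of genes called was 44, and it was 11 with library sizes alone, 251 without the filter (18839 genes tested), 25 without the robust option, 146 with DESeq2, and 8 to 36 with 1 mouse left out. For the other Defa genes the 2 calls became 1 with library sizes alone, 5 without the filter, 5 with DESeq2, and 1 to 3 with 1 mouse left out. For the granule products the 2 calls became 5 without the filter, 4 with DESeq2, and 1 to 4 with 1 mouse left out. With the replicate number as a block, 53 genes were called and Defa24 had a log2 fold change of 0.49. Deviations of control and zinc depletion mice with the same number correlated at 0.0049 to 0.114. Of the 4 control mice, 3 correlated best with their own number. The labels give a replicate number but name no pairs, and the main fit assumed no pairing. Whether mice of the same number share a batch was not tested. The 4 mice per diet and the uncertain division of reads among near-identical Defa genes limit these comparisons, and a difference in a ratio does not say which of its genes changed.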
